A study of Homo sapiens with 8 samples.

Results

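The 10 genes described here are switched on late by keratinocytes, above the basal layer, and were measured in esophageal epithelium treated with dimethyloxalylglycine (DMOG). They are CALML3, CALML5, SBSN, KRTDAP, CDSN, ECM1, MAL, PRSS27, A2ML1 and RHCG, chosen by name, and all 10 were found among the 25369 genes of the expression table. RNA was sequenced from EPC2-hTERT cells, a wild-type human esophageal epithelial line immortalized with telomerase, so every library comes from 1 line. Cells grew for 2 days to confluence on membranes with 0.4 µm pores. The keratinocyte medium was a defined one with epidermal growth factor at 1 ng/ml and pituitary extract at 50 µg/ml. They then had 5 days with 1.8 mM CaCl2 and 4 days of exposure to air, which makes them stratify. The DMOG group (4 libraries) received 1 mM DMOG for 18 h and the vehicle group (4 libraries) received DMSO. Nothing in the labels says whether replicates are separate cultures, so the spread between libraries behind each p-value may be technical.

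As squamous cells leave the basal layer they stop dividing, take up a new keratin pair and, near the surface, make calcium-binding proteins, small secreted proteins, junction glycoproteins and protease inhibitors. Rising calcium and exposure to air both drive this program in culture. DMOG enters cells and competes with 2-oxoglutarate at dioxygenases, among them the prolyl hydroxylases whose mark sends the alpha subunits of hypoxia-inducible factor (HIF) to the proteasome. The series is concerned with HIF-1α and differentiation of the esophageal epithelium.

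The libraries held 31245695 to 39931833 reads in genes. Values are RPKM, reads per kilobase of gene length, divided by the library's reads in genes in units of 1000000. CA9, a HIF target, was at 2.56 to 57.5 RPKM in DMOG libraries, against 0.129 to 1.29 RPKM in vehicle libraries. DMOG replicate 2 had the lowest CA9 of its group, and on the first principal component of the genes tested (65.5% of variance) it stood at 17.1, close to the vehicle libraries at 21.2 to 23.4 and away from the other DMOG libraries at -56.3 to -14.9. The authors' own comparison used replicates 1, 3 and 4 of each group, and why it leaves out replicate 2 is not stated. Results are therefore given for all 8 libraries and for those 6, and no p-value over the 6 takes account of that selection. Squamous markers were abundant, with KRT5 at 5470 to 7256 RPKM in DMOG libraries and 3922 to 8148 RPKM in vehicle libraries, and IVL at 343 to 909 RPKM with DMOG and 218 to 565 RPKM with vehicle. Of 15 markers of leukocytes, fibroblasts, endothelium and intestine, 13 to 14 were below 1 RPKM in every library. Their sum was 62.6 to 94.8 RPKM in DMOG libraries and 44.6 to 74.8 RPKM in vehicle libraries, nearly all of it CD68. CD68 was called higher in the 6-library comparison, and its part in the results was not tested.

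Most of the 10 genes were abundant transcripts in both groups. By mean RPKM of the vehicle libraries, SBSN ranked 83 among the 25369 genes, KRTDAP 125, ECM1 139, RHCG 144, MAL 168 and A2ML1 175. Below them came CALML3 at rank 498, PRSS27 at 1156 and CALML5 at 2120. In DMOG libraries the order ran SBSN 61, RHCG 105, ECM1 125, KRTDAP 149, A2ML1 150, MAL 213, CALML3 403, CALML5 979 and PRSS27 1269. CDSN is left out of the order because of the gene length behind its RPKM, described with its values. In DMOG libraries the ranges of every 2 neighbours in the order overlapped, and in vehicle libraries A2ML1 and CALML3 were the one pair of neighbours that stood apart.

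**Figure D1:**
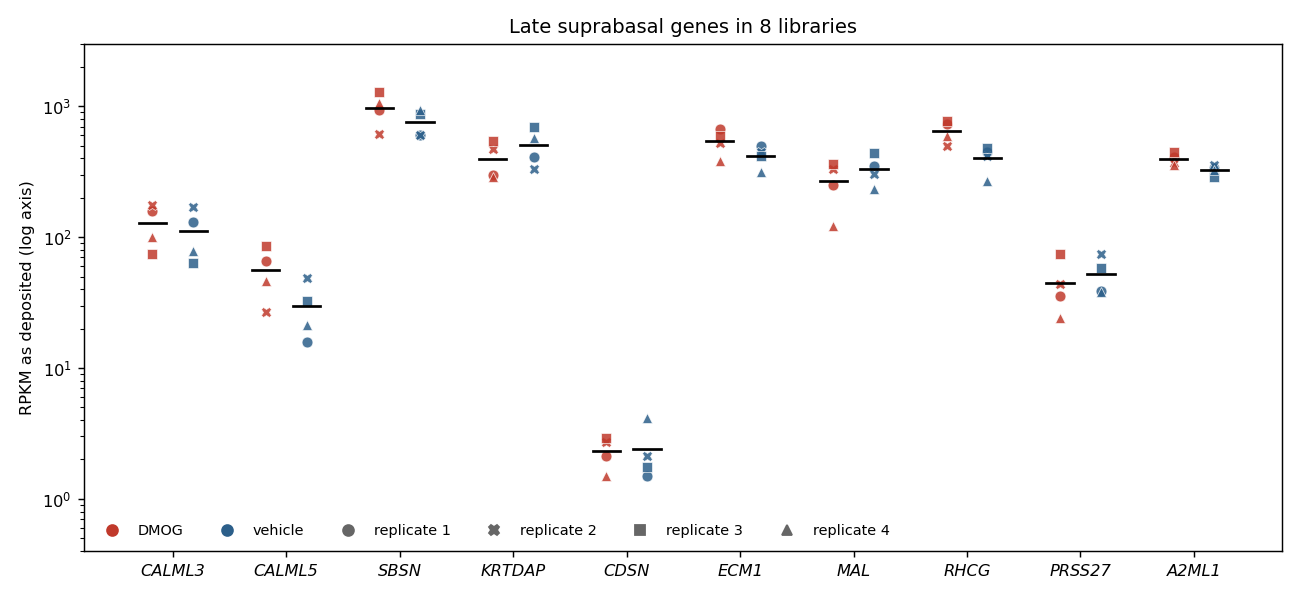
RPKM as deposited of the 10 genes (log axis) in each library, with DMOG in red left of vehicle in blue, a marker shape for each replicate and a black bar at the mean of 4 libraries. RHCG is the gene whose DMOG libraries all lie above its vehicle libraries.

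Changes were tested with limma on log2(RPKM + 1) after dividing by library scaling factors, with adjustment over the 11122 genes tested. All 10 genes passed the filter on low values. Over the 6 libraries, 4 of the 10 were called higher with DMOG (CALML5, RHCG, SBSN and A2ML1), against 13.7% of all genes tested. None of the 10 was called lower, against 16.1% of all genes. Without DMOG replicate 1, 2 of the 10 were called higher, against 4.37% of all genes, and without vehicle replicate 1 also 2, against 3.41%. The median log2 fold change of the 10 genes was 0.61, with 8 of 10 above 0, beside a median of -0.00 over all genes. Over all 8 libraries the adjusted test called 0 of the 10 genes and 0% of all genes. At an unadjusted p below 0.05, limma gave 4 of the 10 higher (CALML5, RHCG, ECM1 and A2ML1), against 14% of all genes, and 0 lower, against 16.3%. Leaving out DMOG replicate 2 alone gave 4 of the 10 called higher, against 15.5% of all genes, and 0 lower, against 17.7%. With the replicate number as a block over 6 libraries, 6 of the 10 were called higher, against 19.6% of all genes, and 0 lower, against 21%.

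Groups that did not overlap were counted as well. Over 6 libraries, 4 of the 10 genes lay wholly higher with DMOG in RPKM as deposited, against 9.99% of all genes, and 5 after scaling, against 24.5%. None lay wholly lower, against 45.6% of all genes as deposited and 26.8% after scaling. Over 8 libraries 1 of the 10 (RHCG) lay wholly higher as deposited, against 2.27% of all genes, and 2 (RHCG and ECM1) after scaling, against 5.04%. None lay wholly lower, against 12.8% as deposited and 7.33% after scaling. Here scaling means division by the median-ratio factor of each library.

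**Figure D2:**
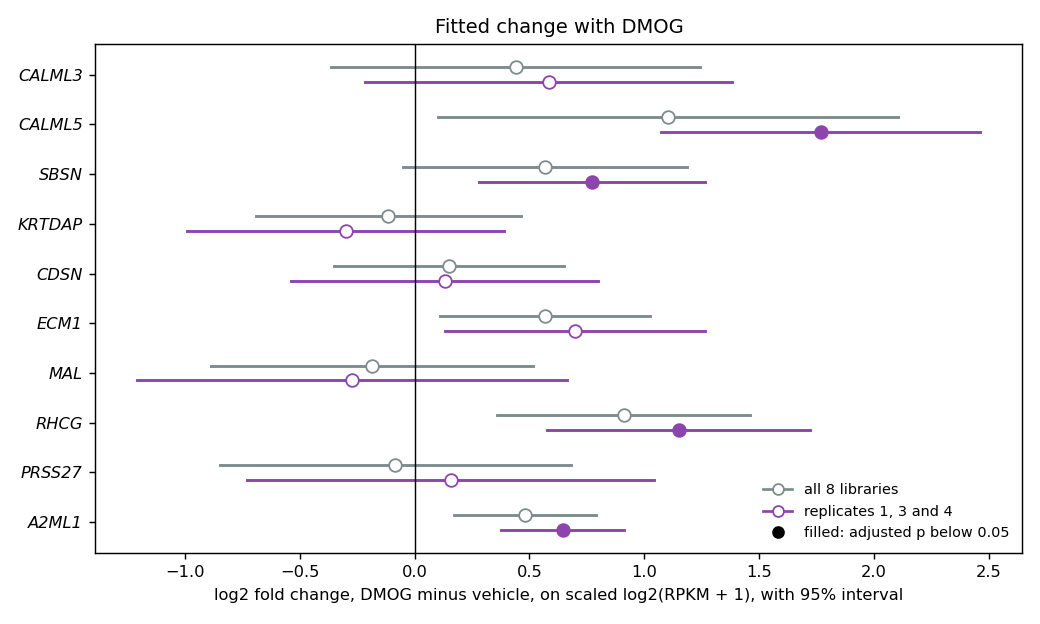
Fitted log2 fold change, DMOG minus vehicle, of each gene with its 95% interval, over all 8 libraries (grey) and over replicates 1, 3 and 4 (purple). Filled points passed an adjusted p of 0.05. CALML5 at 1.77, RHCG at 1.15, SBSN at 0.77 and A2ML1 at 0.65 are filled, all in the 6-library comparison.

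CALML5 and CALML3 are intronless calmodulin-like genes that lie side by side on chromosome 10, 25319 bases apart. In hg19, CALML5 is at chr10:5540658-5541533 on the minus strand and CALML3 at chr10:5566852-5568231 on the plus strand, each with 1 exon in the GENCODE 29 annotation. CALML5 encodes calmodulin-like skin protein, a calcium binder of upper epidermal layers, and CALML3 encodes a calmodulin-related protein of epithelia that binds myosin X. SBSN (suprabasin) and KRTDAP (keratinocyte differentiation-associated protein) encode small secreted proteins and flank DMKN (dermokine) on chromosome 19, at a distance of 32836 bases. Their hg19 positions are chr19:36014269-36019253 for SBSN, with 4 exons, and chr19:35978226-35981433 for KRTDAP, with 6 exons, both on the minus strand.

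The 250 bases before the start of each of these 4 genes are shown because they are 2 pairs of neighbouring genes, whose ratios were tested. They are from RefSeq, build GRCh38.p14, on the strand of the gene. Capitals mark matches on either strand to ACGTG or GCGTG (hypoxia response core), CACGTG (E-box, which holds ACGTG on both strands), TGANTCA (AP-1) or TATAAA.
CALML5, chr10:5499571-5499820, minus strand: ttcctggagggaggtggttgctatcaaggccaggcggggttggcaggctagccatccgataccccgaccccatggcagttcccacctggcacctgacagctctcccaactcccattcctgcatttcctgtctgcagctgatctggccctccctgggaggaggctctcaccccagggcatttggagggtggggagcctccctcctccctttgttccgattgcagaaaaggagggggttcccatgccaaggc
CALML3, chr10:5524711-5524960, plus strand: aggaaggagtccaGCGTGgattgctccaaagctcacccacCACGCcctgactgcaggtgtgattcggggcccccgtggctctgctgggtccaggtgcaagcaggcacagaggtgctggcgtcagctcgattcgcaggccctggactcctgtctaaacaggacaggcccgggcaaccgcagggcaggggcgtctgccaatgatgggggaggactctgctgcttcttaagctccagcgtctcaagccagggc
KRTDAP, chr19:35490465-35490714, minus strand: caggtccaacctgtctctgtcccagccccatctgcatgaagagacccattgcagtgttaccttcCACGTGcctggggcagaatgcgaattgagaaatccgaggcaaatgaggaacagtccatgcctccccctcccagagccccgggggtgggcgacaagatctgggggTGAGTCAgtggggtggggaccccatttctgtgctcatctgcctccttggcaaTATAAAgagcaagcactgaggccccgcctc
SBSN, chr19:35528312-35528561, minus strand: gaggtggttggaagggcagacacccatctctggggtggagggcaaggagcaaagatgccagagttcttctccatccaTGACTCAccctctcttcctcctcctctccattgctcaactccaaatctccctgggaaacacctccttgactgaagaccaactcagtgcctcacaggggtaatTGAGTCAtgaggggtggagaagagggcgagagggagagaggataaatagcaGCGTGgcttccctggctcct

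None of the motifs was in the CALML5 window. The CALML3 window held GCGTG at 237 and, on the other strand, 210 bases before the start. In the KRTDAP window there were an E-box at 186, an AP-1 match at 82 and TATAAA at 30 bases before the start. The SBSN window held AP-1 matches at 173 and 71 bases and GCGTG at 20 bases before the start. Of 35116 promoter windows of this length, 43.2% held ACGTG or GCGTG, 6.34% CACGTG, 6.57% TGANTCA and 10.7% TATAAA. Of the 10 genes, 9 had an entry, with 10 windows because A2ML1 has 2, and 6 of the 10 windows held ACGTG or GCGTG. For A2ML1 these matches and CACGTG were in 1 of its windows and TATAAA in the other. AP-1 matches were in 3 of the 9 (ECM1, KRTDAP and SBSN), and CACGTG in A2ML1 and KRTDAP. A match is a string of letters, and binding was not measured.

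CALML5 had the largest fitted change of the 10 genes. Its level was 66.2, 26.7, 85.7 and 46.0 RPKM in DMOG replicates 1 to 4, against 15.9, 48.4, 32.5 and 21.4 RPKM in vehicle replicates 1 to 4. The groups overlapped through the libraries numbered 2, where DMOG was the lower one, and did not overlap over replicates 1, 3 and 4. The means were 66.0 ± 19.8 RPKM with DMOG and 23.3 ± 8.43 RPKM with vehicle (SD, n = 3 each). CALML5 rose by 1.77 ± 0.29 (SE) on the log2 scale in the 6-library comparison (limma, adjusted p = 0.00890). It was called under all 13 alternatives tried there, with adjusted p of 0.00686 to 0.0432. Over 8 libraries its log2 fold change was 1.10 ± 0.45 (95% interval 0.10 to 2.11, limma adjusted p = 0.144). In the authors' deposited table the ratio of DMOG to vehicle was 3.45, with an adjusted p of 7.47e-07. In these bulk samples, more cells expressing a gene and more of its RNA per cell cannot be told apart.

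CALML3 varied more by replicate number than by treatment. Its level was 159, 178, 74.0 and 101 RPKM in DMOG replicates 1 to 4, against 130.1, 169.8, 63.7 and 78.9 RPKM in vehicle replicates 1 to 4. Replicate 2 was highest and replicate 3 lowest in both groups, and the ranges overlapped. The DMOG library was higher at each of the 4 numbers in RPKM as deposited, and at 3 of 4 after scaling. Over 6 libraries the log2 fold change was 0.58 ± 0.34 (95% interval -0.21 to 1.38, limma adjusted p = 0.218). With the replicate number as a block, the adjusted p was 0.0138, so that call depends on the pairing of numbers. Its antisense gene CALML3-AS1 had 7.54, 4.42, 6.85 and 7.86 RPKM in DMOG libraries, against 3.24, 4.26, 4.06 and 2.96 RPKM in vehicle libraries. CALML3-AS1 rose by 1.19 ± 0.15 over 6 libraries (limma, adjusted p = 0.00501). The 2 genes overlap on opposite strands and how counting treated strand is not stated, so reads of one may be counted for the other. NET1, within 50000 bases of CALML5, rose by 1.21 (limma, adjusted p = 0.0206). Among the calmodulin genes proper, CALM3 rose by 0.42 (limma, adjusted p = 0.0327), and the log2 fold change of CALM2 was 0.03 (adjusted p = 0.931).

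SBSN was the most abundant of the 10 genes in both groups. It stood at 946, 615, 1298 and 1064 RPKM in DMOG replicates 1 to 4, against 602, 607, 873 and 936 RPKM in vehicle replicates 1 to 4. DMOG replicate 2 lay among the vehicle libraries, and the other 3 DMOG libraries lay above every vehicle library. SBSN rose by 0.77 ± 0.21 over 6 libraries (limma, adjusted p = 0.0329), with means of 1102 ± 179 RPKM with DMOG and 803 ± 177 RPKM with vehicle (SD, n = 3 each). That call was lost when any 1 library other than DMOG replicate 3 was left out, with adjusted p of 0.0576 to 0.0983, and with RPKM as deposited (0.47, adjusted p = 0.102) or no filter (adjusted p = 0.0632). Over 8 libraries the log2 fold change was 0.57 ± 0.27 (limma, adjusted p = 0.189).

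KRTDAP was measured at 299, 469, 541 and 286 RPKM in DMOG replicates 1 to 4, against 408, 331, 702 and 570.2 RPKM in vehicle replicates 1 to 4. The ranges overlapped, and the DMOG library was the lower one at numbers 1, 3 and 4 but not 2. Its log2 fold change was -0.30 ± 0.29 over 6 libraries (95% interval -0.99 to 0.39, limma adjusted p = 0.450). Over 8 libraries it was -0.11 ± 0.26 (limma, adjusted p = 0.773). DMKN, between the pair, had 376, 388, 418 and 307 RPKM with DMOG, against 389, 403, 410.0 and 423 RPKM with vehicle. Its log2 fold change was 0.14 over 6 libraries (limma, adjusted p = 0.399). TMEM147, 17249 bases from SBSN, fell by 0.81 (limma, adjusted p = 0.00690), and LOC100506469, 12387 bases from SBSN, fell by 0.79 (limma, adjusted p = 0.0125).

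Whether neighbours differed in their response was tested on their ratio within each library, which needs no scaling. Over 8 libraries the log2 ratio of KRTDAP to SBSN was -1.30 ± 0.66 with DMOG and -0.62 ± 0.24 with vehicle (SD, n = 4 each), a difference of -0.68 (exact two-sided permutation p = 0.114, 0.343 adjusted over 3 pairs). Over replicates 1, 3 and 4 that ratio was -1.66, -1.26 and -1.89 with DMOG, against -0.56, -0.31 and -0.71 with vehicle. These groups did not overlap, and the exact permutation p of 0.1 is the smallest that 3 against 3 can give. CALML5 to CALML3 had a log2 ratio of -1.23 ± 1.20 with DMOG and -1.92 ± 0.85 with vehicle (SD, n = 4 each), a difference of 0.69 (exact permutation p = 0.371, adjusted 0.514). KRTDAP to DMKN differed by -0.19 (exact permutation p = 0.514). No pair passed the test. Its smallest p with 8 libraries is 0.0286 before adjustment, so no pair could pass alone after adjustment over 3 pairs. With 3 against 3 libraries none could pass, so the test cannot decide whether a single pair differed.

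**Figure D3:**
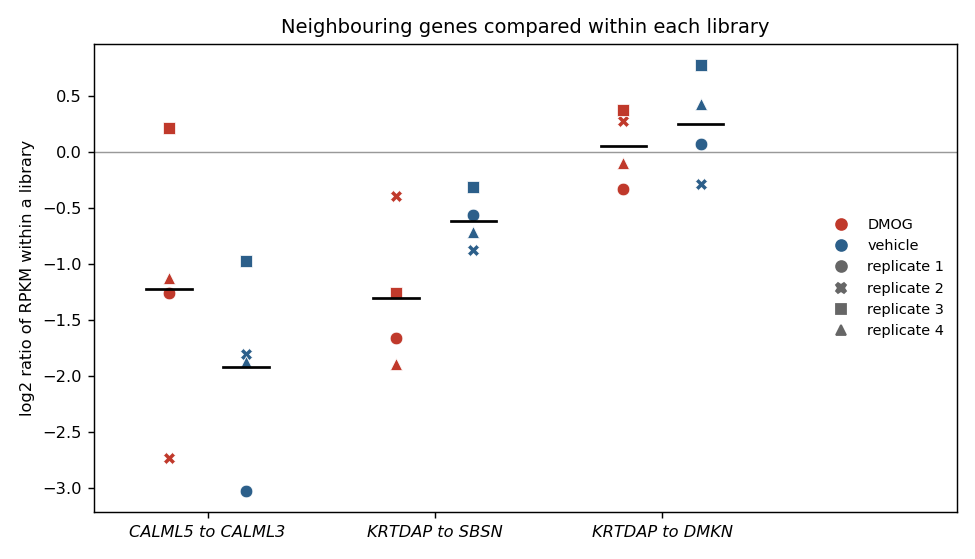
Log2 ratio of RPKM of 2 neighbouring genes within each library, DMOG in red left of vehicle in blue, with a marker shape for each replicate and a black bar at the mean of 4. The KRTDAP to SBSN ratio is below all vehicle libraries in DMOG replicates 1, 3 and 4 and not in replicate 2.

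CDSN and ECM1 encode secreted glycoproteins. CDSN (corneodesmosin, hg19 chr6:31082865-31088252, minus strand, 2 exons) holds together the modified desmosomes of cornifying cells. It had 2.12, 2.71, 2.92 and 1.49 RPKM in DMOG replicates 1 to 4, against 1.49, 2.12, 1.76 and 4.17 RPKM in vehicle replicates 1 to 4. The ranges overlapped and vehicle replicate 4 was the highest library. The length behind these RPKM is 15483 bases, a sum over 6 listed positions on chromosome 6 and its alternate haplotypes, while its transcript has 2552 bases. Its RPKM is therefore understated and its level is not compared with other genes here. The reads behind it were 719 to 1464 in DMOG libraries and 756 to 2197 in vehicle libraries. The log2 fold change was 0.13 ± 0.28 over 6 libraries (95% interval -0.54 to 0.80, limma adjusted p = 0.742), and it changes sign with RPKM as deposited, to -0.07.

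ECM1 (extracellular matrix protein 1, hg19 chr1:150480487-150486265, plus strand, 10 exons) encodes a matrix glycoprotein of skin that binds perlecan. Its level was 669, 525, 591 and 383 RPKM in DMOG replicates 1 to 4, against 501, 447, 419 and 316 RPKM in vehicle replicates 1 to 4. The DMOG library was higher at every number, while the ranges overlapped through DMOG replicate 4. After scaling, its DMOG libraries lay above all vehicle libraries. Its log2 fold change was 0.57 ± 0.20 over 8 libraries (limma, adjusted p = 0.123) and 0.70 ± 0.24 over 6 (limma, adjusted p = 0.0636). It was called under 2 of the 13 alternatives tried over 6 libraries. With the replicate number as a block, which is 1 of them, the limma adjusted p was 0.00914. The authors' deposited table lists it at a ratio of 1.63 with an adjusted p of 0.0196. ADAMTSL4, 35580 bases from ECM1, rose by 0.76 over 6 libraries (limma, adjusted p = 0.0404). The listed span of SRGAP2D overlaps ECM1, so reads may have been divided between them. ECM2, set beside ECM1 for its name only and at low level, was called lower over 6 libraries (log2 fold change -1.35, limma adjusted p = 0.00364). It was at 0.0477 to 0.0575 RPKM in DMOG replicates 1, 3 and 4, and at 1.70 RPKM in DMOG replicate 2. Vehicle libraries had 0.738 to 2.51 RPKM. Of the 6 libraries, only vehicle ones reached the 1 RPKM of the filter, so the call leans on that filter.

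RHCG and MAL encode proteins of the cell membrane. RHCG (hg19 chr15:90014640-90039844, minus strand, 11 exons) is an ammonia and ammonium transporter, abundant in squamous esophagus and in kidney. It was at 738, 496, 773 and 595 RPKM in DMOG replicates 1 to 4, against 450.4, 417, 481 and 268 RPKM in vehicle replicates 1 to 4. All 4 DMOG libraries lay above all 4 vehicle libraries in the RPKM as deposited and after scaling. RHCG rose by 1.15 ± 0.24 over 6 libraries (limma, adjusted p = 0.0159). That call was lost without DMOG replicate 1 (adjusted p = 0.0629) or vehicle replicate 1 (adjusted p = 0.0521). Over 8 libraries its log2 fold change was 0.91 ± 0.24 (limma, adjusted p = 0.118). Its relatives RHBG and RHAG did not pass the filter on low values.

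MAL (hg19 chr2:95691400-95719737, plus strand, 4 exons) encodes a proteolipid of apical membrane sorting. Its level was 252, 334, 360.3 and 121 RPKM in DMOG replicates 1 to 4, against 351, 305, 442 and 235 RPKM in vehicle replicates 1 to 4. DMOG replicate 4 was the lowest library and the ranges overlapped. The log2 fold change was -0.27 ± 0.40 over 6 libraries (95% interval -1.21 to 0.66, limma adjusted p = 0.619), and without DMOG replicate 4 it was 0.13. The related gene MALL had 512, 365, 514 and 530.1 RPKM in DMOG libraries, against 323, 436, 384 and 323 RPKM in vehicle libraries, and rose by 0.90 over 6 libraries (limma, adjusted p = 0.00721). CMTM6, of the wider family, fell by 0.62 (limma, adjusted p = 0.0399). The log2 fold changes of MAL2, CMTM8 and PLP2 were -0.39, -0.26 and -0.08 (limma, adjusted p = 0.0789, 0.113 and 0.634).

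PRSS27 and A2ML1 encode a protease and a protease inhibitor. PRSS27 (marapsin, hg19 chr16:2762423-2770552, minus strand, 6 exons) is a serine protease of stratified squamous epithelia. It had 35.6, 44.0, 74.4 and 24.1 RPKM in DMOG replicates 1 to 4, against 38.5, 74.8, 58.3 and 38.4 RPKM in vehicle replicates 1 to 4. The groups overlapped, each with 1 library near 74 RPKM. Its log2 fold change was 0.16 ± 0.38 over 6 libraries (95% interval -0.73 to 1.04, limma adjusted p = 0.767), and -0.14 with RPKM as deposited. PRSS8 (prostasin), which activates epithelial sodium channels, rose by 0.90 (limma, adjusted p = 0.0105) and PRSS3 by 0.60 (limma, adjusted p = 0.0307). The log2 fold change of PRSS22 was 0.43 (limma, adjusted p = 0.409).

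A2ML1 (hg19 chr12:8975150-9029381, plus strand, 36 exons) encodes an alpha-2-macroglobulin-like inhibitor of proteases made by upper keratinocytes. Its level was 408, 369, 448 and 354 RPKM in DMOG replicates 1 to 4, against 336, 357, 288 and 328 RPKM in vehicle replicates 1 to 4. The groups overlapped only where DMOG replicate 4 was below vehicle replicate 2. A2ML1 rose by 0.65 ± 0.11 over 6 libraries (limma, adjusted p = 0.00992), with means of 404 ± 47.1 RPKM with DMOG and 317 ± 25.8 RPKM with vehicle (SD, n = 3 each). With RPKM as deposited the change was 0.34 and the call was lost (limma, adjusted p = 0.0699). Over 8 libraries it was 0.48 ± 0.14 (limma, adjusted p = 0.118). A2M and PZP, 2 genes of the same family, did not pass the filter, and CD109, another member, had a log2 fold change of 0.67 over 6 libraries (limma, adjusted p = 0.105).

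Dividing by the scaling factors moves all genes together. With RPKM as deposited, the median log2 fold change of all genes was -0.26 over 6 libraries and -0.18 over 8, and the split of calls over 6 libraries was 682 genes higher and 3836 lower, against 1526 and 1792 after scaling. The 2 of the 10 genes still called higher were CALML5 (adjusted p = 0.00982) and RHCG (limma, adjusted p = 0.0271).

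DMOG replicate 2 lay within the range of the vehicle libraries for 6 of the 10 genes and above it for CALML3, ECM1, A2ML1 and RHCG. For KRTDAP, CDSN, MAL and PRSS27, which are among those 6, it also lay within the range of the other DMOG libraries. It was the lowest DMOG library for CALML5, SBSN and RHCG. At the numbers 1, 3 and 4, DMOG was higher than the vehicle library of the same number in 3 of 3 comparisons for some genes. These were CALML3, CALML5, SBSN, ECM1, A2ML1 and RHCG, and it was 0 of 3 for KRTDAP and MAL. Neither this count nor that of DMOG replicate 2 against the vehicle range was made over all genes. They have no background share and only describe these values. The authors' deposited table, which rests on those 6 libraries, lists 5 of the 10 genes at an adjusted p below 0.05, all higher with DMOG, against 18.8% of its 13424 genes. These are CALML5, A2ML1 (ratio 1.57), RHCG (2.16), SBSN (1.69) and ECM1.

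Over the 8 libraries, the genes tested whose profile was most like that of CALML5 were NKPD1, TGM5 and SDR9C7. Likeness is the root mean square difference of centred scaled log2 values, and it was 0.123, 0.169 and 0.178. CALML5 itself varied by 0.865 around its mean, and the median difference over genes was 0.888. TGM5 encodes a transglutaminase of upper epidermis and SDR9C7 an enzyme of epidermal lipid synthesis. SDR9C7 had 28.9, 13.3, 38.2 and 24.0 RPKM in DMOG replicates 1 to 4, against 5.61, 18.8, 11.1 and 8.20 RPKM in vehicle replicates 1 to 4. As for CALML5, replicate 2 was the lowest DMOG library and the highest vehicle library. SDR9C7 was picked for its likeness over these same libraries, so the shared pattern follows from that choice. For SBSN the closest were SPNS2 (0.102), a sphingosine-1-phosphate transporter, RNF222 (0.111) and XKRX (0.150). SBSN varied by 0.486 around its mean, with a median difference over genes of 0.525. KRTDAP was followed by ZNF860 (0.121), ANXA9 (0.154) and TMEM45A (0.155), and varied by 0.370 itself, with a median difference of 0.438. Among the 10 genes themselves, ECM1 and A2ML1 (0.237), ECM1 and RHCG (0.281) and A2ML1 and RHCG (0.359) were the most alike pairs. Genes that vary little differ little by this measure, and no median over genes was taken for these pairs. These are descriptions over 8 libraries that share depth and treatment, with no test.

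**Figure D4:**
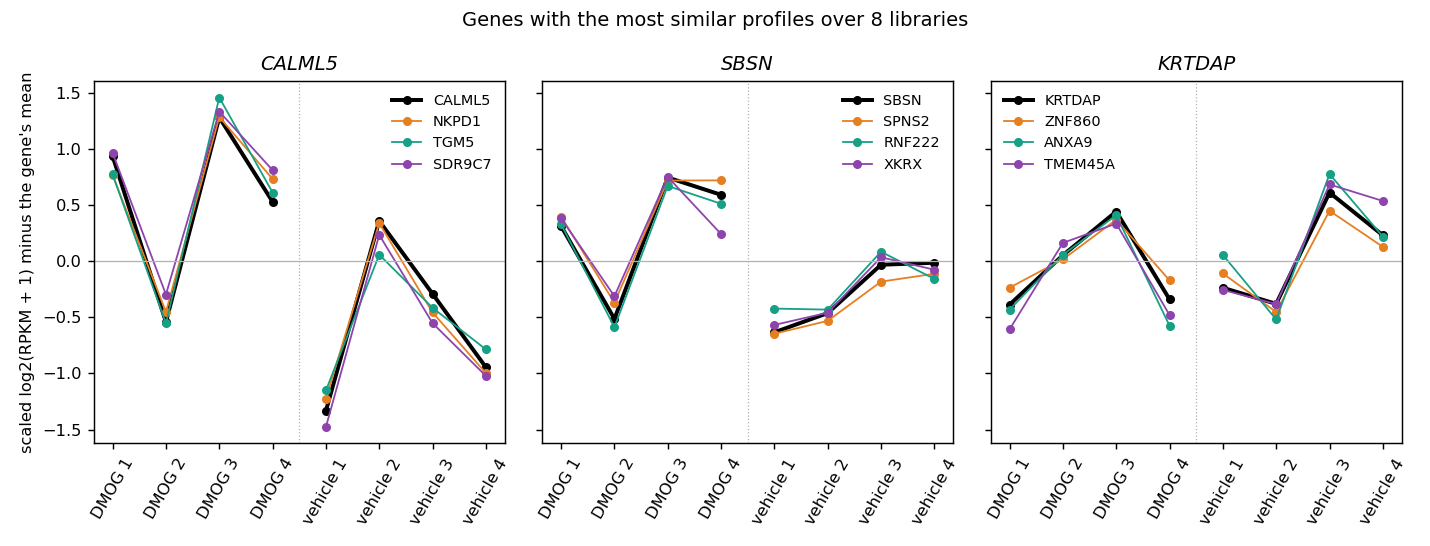
Scaled log2(RPKM + 1) minus the mean of each gene (vertical axis) in the 8 libraries, DMOG left and vehicle right, for CALML5, SBSN and KRTDAP (black) and the 3 genes with the most similar profile to each. The CALML5 group is lowest of the DMOG libraries in replicate 2 and highest of the vehicle libraries in replicate 2. The genes were picked by likeness over these libraries, so the shared shape follows from that choice.

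Other suprabasal genes were set beside the 10. Of 59 listed, 55 were tested, and over 6 libraries 14 were called higher and 1 lower, with a median log2 fold change of 0.43. The shares over all genes tested were 13.7% higher and 16.1% lower. With the replicate number as a block there were 24 higher, against 19.6% of all genes, and 4 lower, against 21%. Without DMOG replicate 1 there were 8 higher, against 4.37% of all genes. Without vehicle replicate 1 there were 4 higher, against 3.41% of all genes, and 0 lower. Without DMOG replicate 3 there were 2 lower, and without vehicle replicate 4 there were 0 lower. Counts of all genes called without each of these libraries are given with the processing. FLG (filaggrin) rose by 1.97 ± 0.36 (limma, adjusted p = 0.0111), LY6D by 1.42 ± 0.30 (limma, adjusted p = 0.0167) and DSC2, a desmosomal cadherin, by 1.32 ± 0.13 (limma, adjusted p = 0.00318). TGM3, a transglutaminase of terminal differentiation, fell by 0.92 (limma, adjusted p = 0.0163). Its level was 35.8, 47.2, 24.7 and 22.8 RPKM in DMOG libraries and 62.0, 67.4, 53.8 and 81.2 RPKM in vehicle libraries, which did not overlap.

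Basal cell genes were called higher as well, 8 of 16 tested with 1 lower and a median of 0.66 over 6 libraries, beside the same 13.7% and 16.1% of all genes. They included the caveolin CAV1 (1.29, limma adjusted p = 0.0121) and the hemidesmosomal collagen COL17A1 (0.83, limma adjusted p = 0.0352). PCNA, the replication clamp, fell by 1.06 (limma, adjusted p = 0.00890). Without DMOG replicate 1, vehicle replicate 1 or vehicle replicate 4, 2 basal genes were called higher, 3 without vehicle replicate 3 and 5 without DMOG replicate 4, and 2 were called lower without DMOG replicate 3. The replicate block also gave 2 basal genes lower, against 21% of all genes. Without DMOG replicate 1 the share of all genes called higher was 4.37%, and without vehicle replicate 1 it was 3.41%. The counts of all genes called also fell without vehicle replicate 3 or vehicle replicate 4, and rose without DMOG replicate 3. Those counts are given with the processing. No count of all genes is given without DMOG replicate 4, so the 5 basal genes called there have no background. The part of basal genes in the results for the 10 genes was not tested. Of 23 differentiation transcription factors tested, 4 were called higher, against 13.7% of all genes, and 1 lower, against 16.1%. Their median was 0.35. With the replicate block 8 were higher, against 19.6% of all genes, and 2 lower, against 21%. The number higher was 7 without DMOG replicate 3, 1 without replicate 1 of either group and 0 without vehicle replicate 4, and the number lower was 0 without DMOG replicate 1 or any 1 vehicle library. The counts of all genes called moved in the same direction each time, up without DMOG replicate 3 and down without the others. FOXN1 rose by 0.97 (limma, adjusted p = 0.0480) and GRHL1 by 0.71 (limma, adjusted p = 0.0308). CEBPB fell by 0.47 (limma, adjusted p = 0.0450). Over all 8 libraries no gene of these lists was called, and the medians were 0.26, 0.50 and 0.26. No list was tested as a set.

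**Figure D5:**
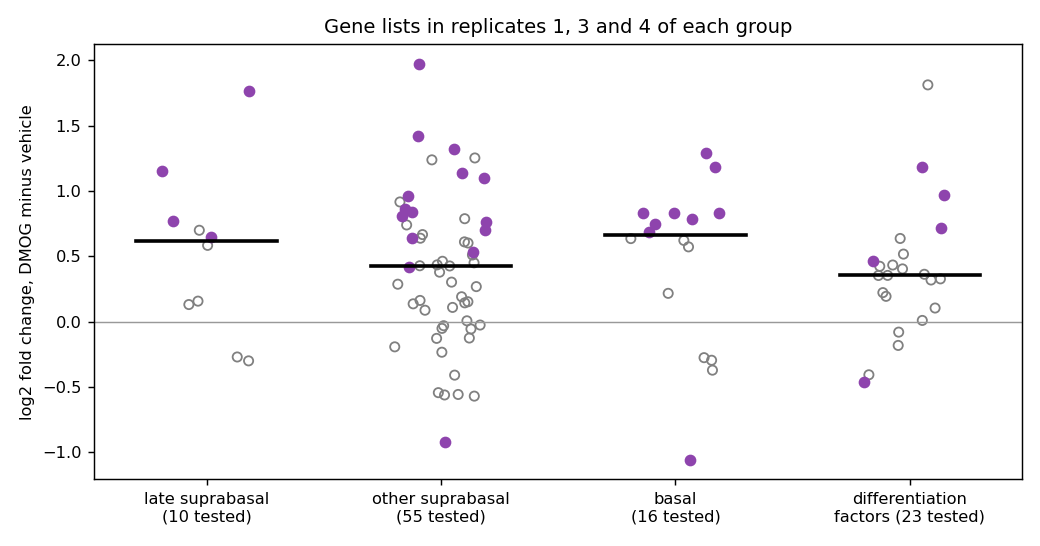
Log2 fold change, DMOG minus vehicle, over replicates 1, 3 and 4 for each gene tested in 4 lists. Filled points passed a limma adjusted p of 0.05 and black bars are medians, at 0.61 for the 10 late suprabasal genes, 0.43 for the other suprabasal genes, 0.66 for basal genes and 0.35 for differentiation factors.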

How the data were processed

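RNA sequencing was read from the authors' deposited table of RPKM for 25369 genes in 8 libraries, made from about 1 µg of total RNA each. The table is named as raw counts, but RPKM times gene length gave whole multiples of 1 number per library, and 100% of values were whole within 0.01 reads. One read was worth 0.0250 to 0.0320 RPM. For a gene at 0, counting error allows 3 reads, which is 0.0751 to 0.0960 RPM. Per the submitters' processing notes, the tools were HTSeq 0.6.1, Picard 1.129, SAMtools 1.3.1, TopHat2 2.0.13 and Bowtie2 2.2.3.0, in no stated order or role, and both hg19 and hg38 are named. Positions in the table are hg19. Rules for strand and multiple mapping are not stated.

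The authors' deposited table of their comparison holds, per the file headers, normalized means on a signal scale, their ratio, its log2 value and p-values. Its means gave weights close to 0 to replicate 2 of either group.

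Groups and replicate numbers come from the labels. Expression was tested with limma 3.58.1 (R 4.3.3, trend, robust empirical Bayes, two-sided, Benjamini-Hochberg adjustment, threshold 0.05) on log2(RPKM divided by median-ratio factors + 1), for genes at RPKM 1 or more in at least 4 libraries. Fold changes on this scale understate the change of low genes. The fit was tested on simulated data. Same-numbered libraries deviated together over replicates 1, 3 and 4 (correlations 0.47, 0.40 and 0.34), so the numbers can be read as pairs there. All tests over these 6 libraries are nevertheless unpaired, and the value with the replicate number as a block is printed where it changes a call or moves a count by over 1.5 times. Over all 8 libraries the correlations were 0.07, -0.02, 0.53 and 0.24 and the numbers cannot be read as pairs. Named genes are all 10, with tested paralogs, like-named genes (ECM2) or neighbours beside their gene. Also named are up to 3 called higher and 3 called lower with the largest change in each list. The HIF target CA9 and the 3 most similar profiles for CALML5, SBSN and KRTDAP are named too. CD68 and neighbours within 50000 bases are named where called. Some genes that this rule names are not reported here. The genes, lists and tests were chosen with earlier results of these data known. Promoter windows are from RefSeq GRCh38.p14, and exon counts from GENCODE 29. Alternatives were the RPKM as deposited, upper-quartile factors, a pseudocount of 0.1, no filter, limma-voom on recovered reads, a replicate block, leaving out each library and, chosen after seeing the data, vehicle replicate 2 added to the 6 libraries.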

Additional observations from a re-analysis of the deposited data

Results flagged for a closer look

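None of the 10 genes had a library far from the other 3 of its group by Dixon's gap test. Of 100 groups of 4 libraries checked, 5 did, and chance alone flags about 1 in 20 groups. DMOG replicate 2 stood apart for NET1, with 89.67 RPKM against 172.5 to 185.2 RPKM in the other DMOG libraries. The same library had 365.3 RPKM of MALL, against 511.6 to 530.1 RPKM in the other DMOG libraries. For ECM2 it had 1.699 RPKM, against 0.04766 to 0.05755 RPKM in the other DMOG libraries. DMOG replicate 4 had 92.69 RPKM of CALM2, against 157.9 to 169.2 RPKM in its group. Vehicle replicate 4 had 5.057 RPKM of FLG, against 1.614 to 1.809 RPKM in its group.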

How the results depend on the processing

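Over 6 libraries, RPKM as deposited gave 682 genes higher and 3836 lower, 2 of the 10 genes higher, 9 other suprabasal genes higher, 4 basal genes higher and 4 lower, and 1 transcription factor higher and 2 lower. It moved the all-gene median log2 fold change to -0.26, and to -0.18 over 8 libraries, and turned CDSN to -0.074 and PRSS27 to -0.14. Without a filter, 5 basal genes were higher, and 1 transcription factor was higher and 0 lower. All genes called were then 1183 higher and 1456 lower, against 1526 and 1792 with the filter. Upper-quartile factors gave 0 transcription factors lower and limma-voom 2. All genes called lower were 1692 with upper-quartile factors and 1847 with limma-voom. The replicate block gave 24 other suprabasal genes higher and 4 lower, 2 basal genes lower, and 8 transcription factors higher and 2 lower, and added CALML3 and ECM1 to the 10 genes' calls. It called 19.6% of all genes higher and 21% lower, and changed no other call of the 10. Adding vehicle replicate 2 gave 5 basal genes higher and 2 lower, and turned PRSS27 to -0.063. This is the same set of libraries as all 8 without DMOG replicate 2, where 1724 genes were called higher and 1970 lower.

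Leaving out each library in turn, calls over 8 libraries ranged over 0 to 1724 genes higher, 0 to 1970 lower and 0 to 4 of the 10 genes higher, all above 0 being without DMOG replicate 2. Over 6 libraries they ranged over 379 to 2224 genes higher, 539 to 2527 lower, 2 to 4 of the 10 genes higher, 4 to 16 other suprabasal genes higher and 0 to 2 lower, 2 to 9 basal genes higher and 1 to 2 lower, and 0 to 7 transcription factors higher and 0 to 1 lower. The lowest gene counts were without vehicle replicate 1 and the highest without DMOG replicate 3. They were over 1.5 times below those of all 6 libraries also without DMOG replicate 1 (486 and 607), vehicle replicate 3 (864 and 1018) and vehicle replicate 4 (466 and 587). Log2 fold changes that changed sign ranged, over 8 libraries, over -0.28 to 0.068 for KRTDAP, -0.37 to 0.11 for MAL and -0.37 to 0.13 for PRSS27. Over 6 libraries the ranges were -0.071 to 0.43 for CDSN, -0.26 to 0.48 for PRSS27 and -0.60 to 0.13 for MAL. The cause was not tested. The neighbour ratios kept their direction under every alternative tried and none passed the test. With 3 against 3 libraries none could pass, and with 8 libraries no pair could pass alone after adjustment. Depth was not limiting for the 10 genes, the fewest reads being 457, for CALML5 in vehicle replicate 1. The limits for genes at 0 cover counting error only.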
